A study of Homo sapiens with 15 samples.

Results

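Interferon-stimulated genes are the genes that a cell switches on after it has sensed an interferon, and 49 of them were followed here by name in HCC1954, a human breast cancer cell line with amplified HER2. All 49 names were found among the 19843 names in the deposited tables. A gene was kept when its normalized count was at least 1 in 3 or more of 15 libraries, as 13205 genes were, and 48 of the 49 were. MX2, a dynamin-like GTPase that blocks nuclear import of viral genomes, was the gene left out, with its highest value at 0.953 in Pa 2. The genes nearest to the limit on the other side, CMPK2 and RSAD2, reached a value of 1 in 7 libraries each.

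The study profiled messenger RNA in 4 groups of cultured HCC1954 cells: the parental line (Pa, 3 libraries) and brain-tropic derivatives labelled synchronous metastatic (S-BM, 4), latent or residual (Lat, 4) and metachronous metastatic (M-BM, 4). Every sample was grown in a medium named R3F, at a set density overnight, so no group was measured inside the brain and no label records treatment with an interferon. Whether the libraries within a group came from separate cultures, animals or clones is not recorded. The p-values therefore rest on the spread among these libraries, and that spread may be technical. The 3 brain-tropic groups stand in 1 table and were tested against each other. Pa stands in a table of its own, so its levels are given without a test, and table and group cannot be told apart there. Values per library are always listed in the order of the replicate numbers.

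Type I interferons bind a receptor made of IFNAR1 and IFNAR2, whose kinases JAK1 and TYK2 phosphorylate STAT proteins such as STAT2. STAT2 joins IRF9 in a complex that binds the interferon-stimulated response element in promoters, while type II interferon acts on the gamma-activated site. The induced proteins bind or degrade viral RNA, conjugate the ubiquitin-like protein ISG15, restrict viral entry and, as more STAT and IRF factors, reset the pathway itself. Many carcinoma lines carry some of this expression in culture without added interferon.

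The stretches of promoter below, each of 120 bases upstream of a RefSeq start site (GRCh38.p14), are shown for the genes with the largest changes and for well-known members that were not called. They are written 5′ to 3′ in the sense of the gene, and capitals mark the core of the interferon-stimulated response element, which is GAAA, any pair of bases and GAAA again, on either strand. HERC5 (chr4:88456984-88457103, plus strand) and IFI27 (chr14:94110616-94110735, plus strand) were higher in Lat than in S-BM. ISG15 (chr1:1013374-1013493, plus strand) and IFIT1 (chr10:89392497-89392616, plus strand) were not called. SAMD9 (chr7:93118006-93118125, minus strand) and its neighbour SAMD9L (chr7:93148396-93148515, minus strand) were lower.
HERC5: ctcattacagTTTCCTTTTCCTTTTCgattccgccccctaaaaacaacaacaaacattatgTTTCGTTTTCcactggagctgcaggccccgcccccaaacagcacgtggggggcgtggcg
IFI27: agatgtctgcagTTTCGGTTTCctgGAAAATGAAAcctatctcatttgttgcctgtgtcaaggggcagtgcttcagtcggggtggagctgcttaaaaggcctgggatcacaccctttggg
ISG15: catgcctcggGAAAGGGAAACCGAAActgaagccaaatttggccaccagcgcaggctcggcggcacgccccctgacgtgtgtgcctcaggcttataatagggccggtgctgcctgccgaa
IFIT1: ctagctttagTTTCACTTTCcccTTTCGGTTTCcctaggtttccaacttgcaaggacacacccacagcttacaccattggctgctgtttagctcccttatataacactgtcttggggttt
SAMD9: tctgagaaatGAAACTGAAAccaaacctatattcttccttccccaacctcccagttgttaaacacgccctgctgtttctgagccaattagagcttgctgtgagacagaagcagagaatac
SAMD9L: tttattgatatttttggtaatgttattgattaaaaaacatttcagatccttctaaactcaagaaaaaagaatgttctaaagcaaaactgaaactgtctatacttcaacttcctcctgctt
In HERC5 the 3 matches begin 125, 119 and 74 bases before the start, and the first of these overlaps its neighbour; in ISG15 the matches at 113 and 107 bases overlap as well. No match lies in the SAMD9L window, which says only that these letters are not there. RefSeq windows of 300 bases (250 before to 50 after a start) were found for 39 of the 49 genes, DDX58 under its current symbol RIGI. USP18, IFIT2, OAS2, OASL, IFITM2, MX2, GBP2, DHX58, IRF7 and TRIM22 had none. The core occurred in 25 of the 39 (64.1%), against 4.38% of 27305 genes with a window. The gamma-activated site TTCNNNGAA, which is its own reverse complement, occurred in 11 of the 39 (28.2%), against 9.38% of those genes. Among genes tested in Lat against S-BM, the core was present in 6 of 8 that were higher, 9 of 17 that were lower and 10 of 14 that were not called or not tested. A match describes the letters of a window and is not evidence of a bound site.

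Between 13.25 and 21.84 M reads per library were recovered from the normalized values, so that a value of 1 stood for 13.3 to 22.1 reads and 3 reads for a value of 0.136 to 0.225; such limits cover counting error only. Epithelial markers were present in every group, and 6 of 7 matched immune and microglial markers stayed below 1 in every library. So did 4 of 7 matched astrocyte, neuron and oligodendrocyte markers and 2 of 6 matched endothelial and fibroblast markers, with 0 markers at 0 throughout. The former list, mostly MBP, summed to 76.7 to 109.5 in S-BM, 98.5 to 130 in Lat, 103 to 155.2 in M-BM and 106.3 to 112.9 in Pa. The latter summed to 19.8 to 30.9, 13.6 to 28.5, 14.8 to 22.2 and 27.9 to 37.7 in the same order. Some of these markers moved with the groups: OLIG2 read 0.354 to 1.5 in S-BM against 4.14 to 5.16 in Lat and 2.66 to 5.16 in M-BM, and VWF read 2.91 to 4.2 against 0.257 to 0.518 and 0.243 to 0.951. CDH5 was also lower, at 7.86 to 11.3 against 3.6 to 5.125 and 1.17 to 5.15. Other markers of the same lists did not follow. MBP overlapped between groups, and GFAP, SNAP25 and MOG stayed below 1 in every library. COL1A1 went the other way from VWF, at 3.25 to 6.34 in S-BM against 5.93 to 20.7 and 5.57 to 10.7, with overlap. The part of these markers in the results was not tested. Some libraries stood apart from their group. S-BM 3 and S-BM 4 differed from each other by a chi-square of 3.40 per degree of freedom, against 33.6 to 67.7 for the other S-BM pairs, and ERBB2 stood at 353.1 and 367.3 in them against 4109 and 4642 in S-BM 1 and S-BM 2. Lat 1 and Lat 2 were also close, at 3.88, and a value of 1 would be sampling noise. Lat 3 was far from the other Lat libraries, at 36.8 to 42.1. Counts are therefore given with and without S-BM 3 and S-BM 4 together, and with and without Lat 3. Lat 1 and Lat 2 were left out only 1 at a time, so the weight of that pair was not tested. In such bulk samples, fewer cells expressing a gene and less of its RNA per cell cannot be told apart.

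Against S-BM, the interferon-stimulated genes split in Lat: 22 of 48 tested were lower and 11 were higher at an adjusted p under 0.05 in limma, and 15 were not called. Over all 12853 genes tested, 28.9% were lower, 29% were higher and 57.9% were called in either direction. All Lat libraries lay below all S-BM libraries for 20 of the 48 (26.8% of all genes) and above them for 7 (25.9%). At a change of at least 2-fold, 9 of the 48 were lower and 7 higher, where 8.68% and 7.17% of all genes were. The median log2 fold change of the 48 was -0.27, with a range from -2.36 (SAMD9L) to 4.03 (HERC5), beside -0.00 over all genes tested. Fold changes are on the scale of log2(value + 1), which understates the change of low genes. RSAD2, DHX58, IFI27 and XAF1 were below 1 in every S-BM library and were tested only because they were higher in another group. OAS2, OASL, CMPK2 and IFI44L reached 1 in 1 S-BM library, and HERC5 and IFI44 in 3, so these too passed only with another group. Every gene called higher at 2-fold or more in Lat or M-BM is among these genes, so the filter favoured that direction in those counts. Of the 48, 38 had a value of at least 1 in all 12 libraries.

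M-BM gave a similar split against the same S-BM libraries: 21 of 48 were lower, 8 were higher and 19 were not called. The background was 25.4% lower, 25.5% higher and 50.9% in either direction. Groups did not overlap for 22 lower (22.5% of all genes) and 7 higher genes (22.4%). At a change of at least 2-fold, 11 were lower and 6 higher, where 6.47% and 5.4% of all genes were. The median log2 fold change was -0.24, again beside -0.00 over all genes tested, and the range ran from -2.32 (SAMD9L) to 4.18 (HERC5). Both comparisons use the same S-BM libraries, so the likeness of their values is not separate evidence. Without S-BM 3 and S-BM 4, Lat had 18 lower and 8 higher genes and M-BM had 19 and 6. Without Lat 3, Lat had 24 lower and 8 higher genes, with 13 lower and 5 higher by at least 2-fold.

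**Figure D1:**
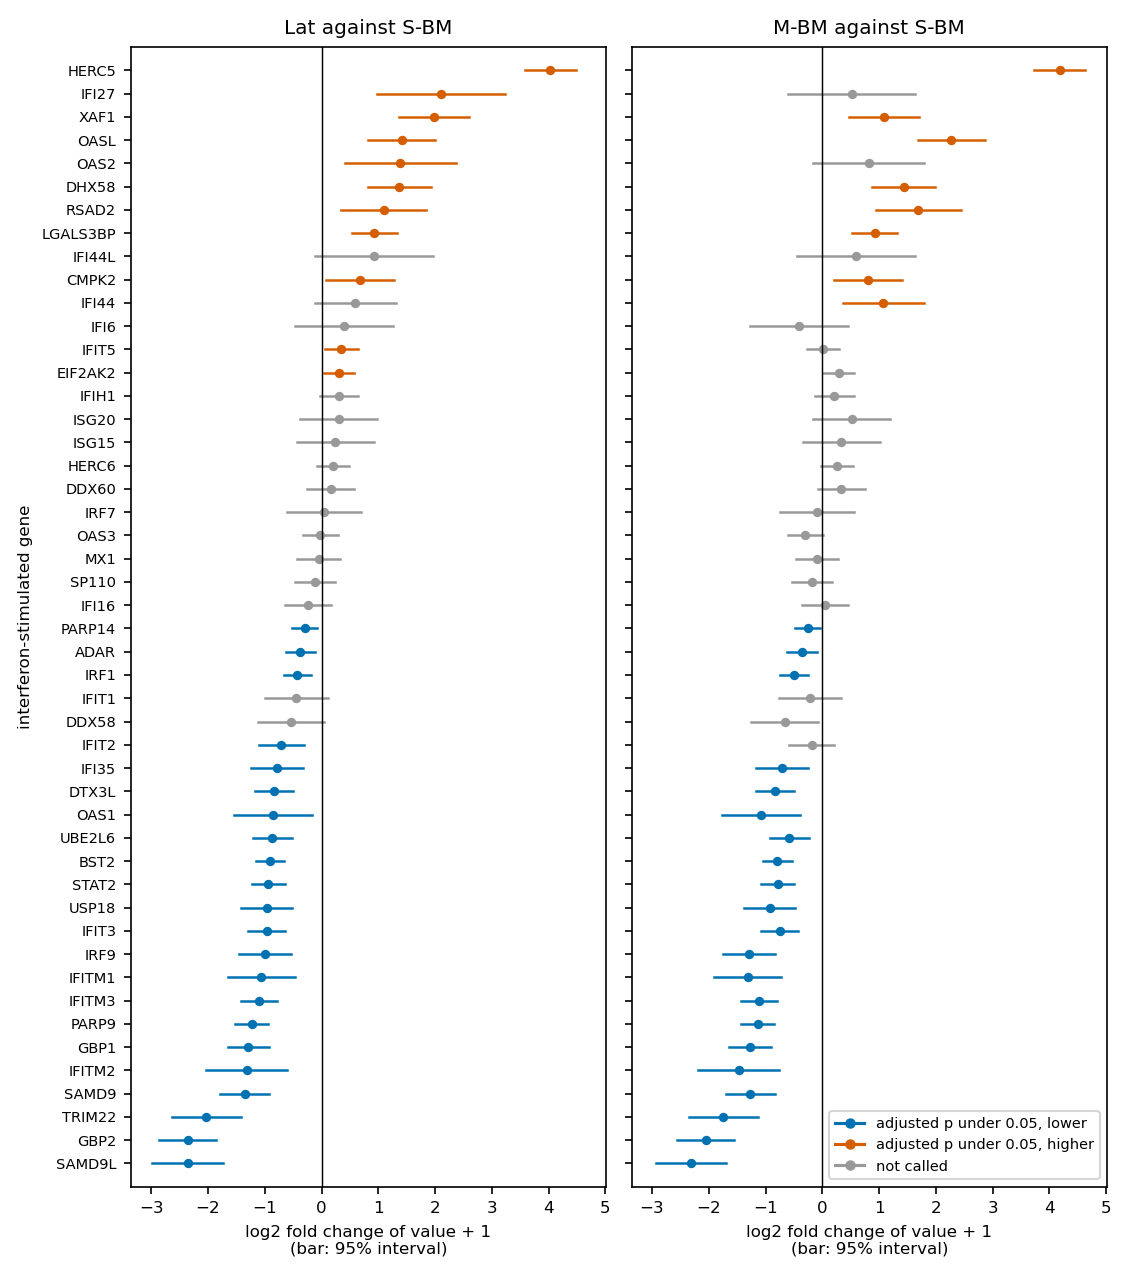
Log2 fold change of value + 1 for 48 interferon-stimulated genes, in Lat against S-BM (left) and M-BM against S-BM (right), with 4 libraries a group. Points are limma estimates and bars their 95% intervals; blue genes were called lower, orange genes higher and grey genes were not called. HERC5 stands alone at the top, at 4.03 and 4.18, and SAMD9L, GBP2 and TRIM22 lie at the bottom of both panels.

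The ISG15 conjugation genes moved in both directions, 2 lower, 1 higher and 2 not called of 5 in either comparison. Over all genes tested, 28.9% were lower and 29% higher in Lat, and 25.4% and 25.5% in M-BM. HERC5, the ligase that attaches ISG15 to newly made proteins, stood at 1.14, 2.78, 0.675 and 1.11 in S-BM, 30.7, 34.2, 45.3 and 38.4 in Lat, 37.9, 40.8, 48.5 and 37.6 in M-BM, and 5.86, 9.79 and 5.33 in Pa. The log2 fold change was 4.03 (SE 0.21, adjusted p = 1.8e-08) in Lat and 4.18 (SE 0.21, adjusted p = 1.6e-08) in M-BM. All Lat and M-BM libraries were far above the highest S-BM library, S-BM 2, and above all Pa libraries too. ISG15 itself, the ubiquitin-like modifier, stood at 2.73, 2.43, 3.97 and 5.06 in S-BM, 2.41, 2.88, 10.7 and 3.905 in Lat, 3.94, 4.202, 5.401 and 4.899 in M-BM, and 5.79, 13.1 and 7 in Pa. Its groups overlapped and it was not called, at 0.24 (SE 0.32, adjusted p = 0.526) in Lat and 0.33 (SE 0.32, adjusted p = 0.398) in M-BM. Within Lat, only Lat 3 lay above the S-BM libraries. USP18, the protease that removes ISG15 and also dampens the type I receptor, read 6.38, 5.97, 5.25 and 5.59 in S-BM, 1.9, 1.38, 3.93 and 3.28 in Lat, 1.82, 2.85, 2.73 and 2.997 in M-BM, and 7.07, 9.34 and 7.39 in Pa. It fell by 0.96 in Lat (SE 0.21, adjusted p = 0.0014) and by 0.93 in M-BM (SE 0.21, adjusted p = 0.00234), with no overlap between groups; 23.4% of its 50-base stretches also occur in other genes, USP41 among them. UBE2L6, the conjugating enzyme that hands ISG15 to its ligases, read 108, 102, 147 and 159 in S-BM, 67.7, 67.4, 57.8 and 86.3 in Lat, 90.9, 101, 71.8 and 77.8 in M-BM, and 174, 192 and 150.3 in Pa. Against S-BM, log2 fold changes came to -0.87 (SE 0.16, adjusted p = 0.000428) in Lat and -0.58 (SE 0.16, adjusted p = 0.00867) in M-BM, and the M-BM call was lost once S-BM 3 and S-BM 4 had been removed (-0.31, adjusted p = 0.141). HERC6, a relative and neighbour of HERC5, was not called at 0.20 and 0.26. It was called higher without S-BM 3 and S-BM 4, at 0.38, adjusted p = 0.0492 in Lat and 0.44, adjusted p = 0.0305 in M-BM.

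HERC5 lies on chromosome 4 (88457119 to 88506163, GRCh38), and genes around it were also higher. Of 7 tested protein-coding neighbours within 400 kb, with PIGY and PYURF counted once because their values were identical, 5 were higher in Lat and 5 in M-BM, 0 were lower and 2 were not called. The share of all genes called higher was 29% in Lat and 25.5% in M-BM. ABCG2, a drug efflux transporter, stood at 5.36, 3.49, 3.97 and 3.84 in S-BM, 91.98, 93.8, 65.6 and 101 in Lat, 55.9, 57.3, 74.5 and 54.7 in M-BM, and 7.34, 6.801 and 3.44 in Pa. limma put its log2 fold change at 4.10 (SE 0.15, adjusted p = 8.72e-10) in Lat and 3.58 (SE 0.15, adjusted p = 4.49e-09) in M-BM, and no Lat or M-BM library came near the S-BM range. PPM1K, a mitochondrial phosphatase, gave 1.43 and 1.34, PIGY 1.12 and 1.22, PKD2 0.80 and 0.81, and HERC3 0.72 and 0.58. The HERC3 calls were lost once S-BM 3 and S-BM 4 had been removed (0.47, adjusted p = 0.0614 in Lat and 0.34, adjusted p = 0.182 in M-BM). HERC6, between PPM1K and HERC5, and FAM13A at the far end were not called; without S-BM 1, FAM13A was called lower in Lat (-0.47, adjusted p = 0.0126). Around SAMD9L, the gene with the largest fall, 3 neighbours were tested: SAMD9 and CCDC132 were lower in both comparisons, CCDC132 at -0.67 and -0.54, and CDK6 was higher in Lat, at 0.38 (lost without Lat 2, adjusted p = 0.0508), and not called in M-BM, at 0.18 (called without M-BM 2, adjusted p = 0.0418). Among all genes tested, 28.9% were lower in Lat and 25.4% in M-BM, so 3 neighbours are too few to describe the region.

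**Figure D2:**
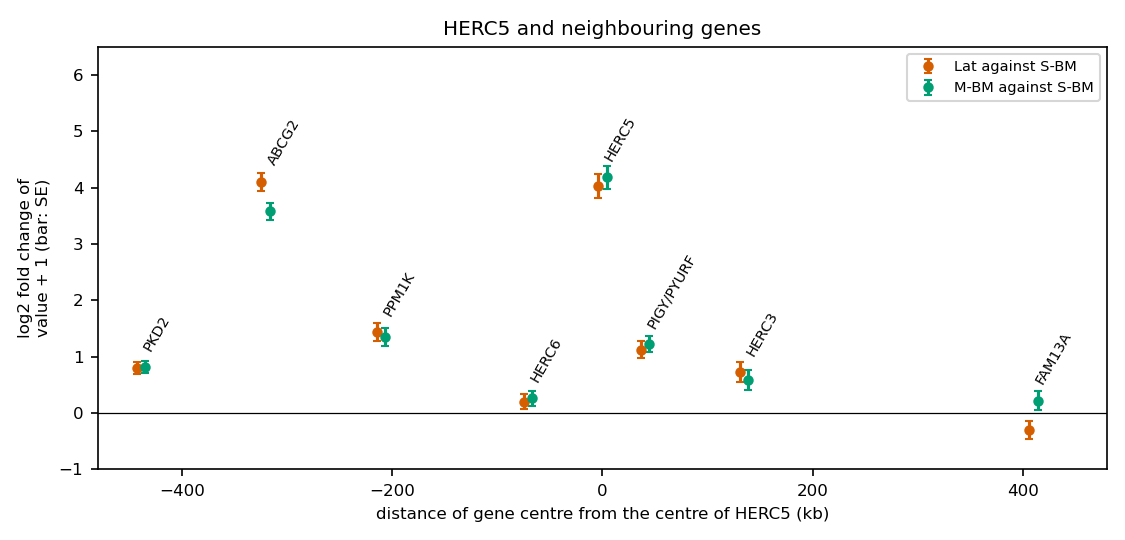
Log2 fold change of value + 1 against S-BM for HERC5 and its tested neighbours, by distance of the gene's centre from the centre of HERC5 in kb (orange Lat, green M-BM, bars SE, 4 libraries a group). ABCG2 and HERC5 stand near 4, PPM1K, PIGY with PYURF, PKD2 and HERC3 lie between 0.58 and 1.43, and HERC6 and FAM13A lie between -0.30 and 0.26.

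The IFIT proteins, which bind viral RNA through its end structure, were mixed. Of 4, Lat had 2 lower and 1 higher, and M-BM had 1 lower. The shares of all genes were 28.9% lower and 29% higher in Lat, and 25.4% and 25.5% in M-BM. IFIT3 read 24.4, 39.8, 36.5 and 37.2 in S-BM, 16.2, 15.4, 19.4 and 16.7 in Lat, 16.2, 21.8, 19.9 and 21.5 in M-BM, and 64.6, 80.8 and 60.7 in Pa. It fell by 0.97 in Lat (SE 0.15, adjusted p = 0.00011) and by 0.75 in M-BM (SE 0.15, adjusted p = 0.00105), and all S-BM libraries lay above all Lat and M-BM libraries. IFIT2 read 23.98, 44.1, 28.9 and 27.2 in S-BM, 18.4, 17.9, 20.3 and 16.2 in Lat, 18.5, 28.6, 30.2 and 30.3 in M-BM, and 59.99, 64.6 and 55.4 in Pa. Against S-BM this gave a log2 fold change of -0.71 (SE 0.19, adjusted p = 0.00532) in Lat, without overlap, and -0.19 (SE 0.19, adjusted p = 0.419) in M-BM, where only M-BM 1 was as low as the Lat libraries. IFIT1, which recognises RNA caps that lack a methyl group, read 4.56, 12.2, 8.77 and 8.21 in S-BM, 4.06, 4.596, 8.96 and 5.79 in Lat, 4.97, 7.5, 7.05 and 7.801 in M-BM, and 23.2, 40.9 and 26.4 in Pa. It was not called in either comparison, at -0.45 (SE 0.26, adjusted p = 0.153) in Lat and -0.22 (SE 0.26, adjusted p = 0.5) in M-BM; without Lat 3 the Lat value was called (-0.64, adjusted p = 0.0415), as it was without S-BM 1 (-0.68, adjusted p = 0.0249). Pa libraries were the highest for IFIT1, IFIT2 and IFIT3. IFIT5 read 17.3, 23.7, 28.8 and 25.4 in S-BM, 27.9, 30.6, 33.2 and 29.01 in Lat, 23.3, 24.3, 23.99 and 23.2 in M-BM, and 34.9, 40.5 and 32.3 in Pa. It was higher in Lat at 0.35 (SE 0.13, adjusted p = 0.0352), with overlapping groups and a call that was lost without any of 5 libraries (S-BM 1, S-BM 2, Lat 2, Lat 3 or Lat 4, adjusted p = 0.0507 to 0.105; 0.21 without S-BM 1) and in a fit of the 2 groups (adjusted p = 0.0635), and not called in M-BM at 0.01.

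The 2′-5′ oligoadenylate synthetases make the second messenger that activates RNase L, and they are listed here with the exonuclease ISG20. Of these 5 genes, Lat had 1 lower and 2 higher, and M-BM had 1 lower and 1 higher. All genes tested were 28.9% lower and 29% higher in Lat, and 25.4% and 25.5% in M-BM. OASL, a member without synthetase activity that assists RIG-I, read 0.399, 1.21, 0.4499 and 0.524 in S-BM, 2.67, 1.61, 5.59 and 4.39 in Lat, 4.58, 8.04, 8.61 and 6.75 in M-BM, and 2.56, 6.17 and 3.06 in Pa. It was higher by 1.41 (SE 0.27, adjusted p = 0.00057) in Lat and 2.28 (SE 0.27, adjusted p = 2.19e-05) in M-BM, and the S-BM libraries lay below all others. OAS2 read 0.228, 2.43, 0.07498 and 0.291 in S-BM, 1.18, 1.44, 10.2 and 3.63 in Lat, 1.28, 1.67, 2.14 and 1.95 in M-BM, and 60.3, 108 and 83.7 in Pa. Its range in Pa was far above every other library. Its Lat value was 1.39 (SE 0.46, adjusted p = 0.018), lost without S-BM 3 (1.21, adjusted p = 0.0527) and without both S-BM 3 and S-BM 4 (0.99, adjusted p = 0.159), and 0.90 without Lat 3 (adjusted p = 0.0495). It gave an M-BM value of 0.82 (SE 0.46, adjusted p = 0.149), called without S-BM 2 (1.2, adjusted p = 0.0324), the one S-BM library above 1. OAS1 read 3.93, 9.06, 4.95 and 4.66 in S-BM, 1.49, 1.38, 6.005 and 2.72 in Lat, 1.18, 2.58, 1.995 and 2.57 in M-BM, and 20.9, 32.7 and 23.2 in Pa. It fell by 0.86 in Lat (SE 0.32, adjusted p = 0.0332), where Lat 3 overlapped S-BM, and by 1.08 in M-BM (SE 0.32, adjusted p = 0.012), without overlap. The Lat call of OAS1 was lost without S-BM 2, Lat 1, Lat 2 or Lat 4 (adjusted p = 0.0531 to 0.108), without both S-BM 3 and S-BM 4, with no filter, in a fit of the 2 groups, in edgeR and in DESeq2 (adjusted p = 0.0514 to 0.0795). OAS3, whose product makes the longest chains, was not called, at -0.02 and -0.30. In M-BM it was called lower without Lat 3 (-0.30, adjusted p = 0.0184), which enters through the shared estimate of spread. A fit of the 2 groups also called OAS3 lower in M-BM, where all its libraries lay below the S-BM libraries. ISG20 was not called, at 0.30 and 0.52.

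Of 6 genes grouped as membrane and entry restriction, 4 were lower and 2 higher in both comparisons. Beside them, 28.9% of all genes were lower and 29% higher in Lat, and 25.4% and 25.5% in M-BM. The lower ones were IFITM1, IFITM2 and IFITM3, which stiffen membranes against viral fusion, and BST2 (tetherin), which holds budding virus at the surface. IFITM2 read 17.8, 15.2, 21.1 and 24.4 in S-BM, 9.96, 8.69, 2.38 and 11.3 in Lat, 5.71, 8.54, 4.67 and 6.95 in M-BM, and 42.4, 37.2 and 39.2 in Pa. The log2 fold change was -1.32 (SE 0.33, adjusted p = 0.00366) in Lat and -1.47 (SE 0.33, adjusted p = 0.00216) in M-BM, and Lat 3 was the lowest library. IFITM1 read 50.1, 48.5, 71.8 and 61.6 in S-BM, 28.4, 26.1, 19.1 and 36.8 in Lat, 26.98, 35.9, 11.5 and 22.2 in M-BM, and 75.5, 103 and 67.8 in Pa. It was lower, at -1.06 (SE 0.28, adjusted p = 0.0046) in Lat and -1.32 (SE 0.28, adjusted p = 0.00137) in M-BM, with no overlap, and its Lat call was lost once S-BM 3 and S-BM 4 had been removed (-0.85, adjusted p = 0.0549). IFITM3, at 158 ± 37.02 in S-BM against 71.9 ± 1.49 in Lat and 71.6 ± 11.5 in M-BM (SD, n = 4), gave -1.10 and -1.11. Between 17.4% and 34.1% of the 50-base stretches of these 3 genes also occur in other genes, so their reads may be split. BST2 gave -0.91 and -0.79, from 73.05 ± 10.7 in S-BM to 38.3 ± 4.25 in Lat and 41.5 ± 3.23 in M-BM (SD, n = 4). The higher ones were RSAD2 (viperin), which makes a chain-terminating nucleotide, and its neighbour CMPK2, a mitochondrial nucleotide kinase. RSAD2 read 0.171, 0.304, 0 and 0.0582 in S-BM, 0.976, 0.775, 2.02 and 2.16 in Lat, 0.492, 5.06, 3.94 and 2.95 in M-BM, and 0.539, 4.13 and 1.56 in Pa. It was higher by 1.09 (SE 0.35, adjusted p = 0.0157) in Lat and 1.69 (SE 0.35, adjusted p = 0.00125) in M-BM without overlap between groups, all at low counts. RSAD2 passed the filter only through Lat and M-BM, so the filter favoured this direction. Its Lat call was lost with quantile normalization (0.86, adjusted p = 0.0531) and once S-BM 3 and S-BM 4 had been removed (0.96, adjusted p = 0.0943). CMPK2 gave 0.68 (SE 0.28, adjusted p = 0.0485) in Lat and 0.81 (SE 0.28, adjusted p = 0.0257) in M-BM; its Lat call was lost without any 1 of 8 libraries (S-BM 1, S-BM 3, S-BM 4, any Lat library or M-BM 3, adjusted p = 0.0502 to 0.129), and its M-BM call without S-BM 1, S-BM 3, S-BM 4, M-BM 2 or M-BM 3 (adjusted p = 0.0599 to 0.0838). Without both S-BM 3 and S-BM 4, CMPK2 gave 0.40 (adjusted p = 0.339) in Lat and 0.53 (adjusted p = 0.219) in M-BM. Quantile normalization also ended both calls (adjusted p = 0.17 and 0.109), and edgeR, DESeq2 and testing with no filter ended the Lat call (adjusted p = 0.0647 to 0.0994).

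The guanylate-binding proteins GBP1 and GBP2, large GTPases that coat intracellular pathogens, were lower in both comparisons, and the related antiviral GTPase MX1 was not called. Across all genes tested, 28.9% were lower in Lat and 25.4% in M-BM. GBP2 read 28.9, 50.1, 50.9 and 50.2 in S-BM, 8.06, 6.98, 5.18 and 12.1 in Lat, 8.22, 9.17, 8.86 and 13.6 in M-BM, and 57.8, 64.8 and 63.4 in Pa. It fell by 2.36 in Lat (SE 0.24, adjusted p = 2.98e-06) and by 2.06 in M-BM (SE 0.24, adjusted p = 1.67e-05), and even S-BM 1, the lowest of its group, was above all Lat and M-BM libraries. GBP1 read 97.2, 119, 150.5 and 148 in S-BM, 47.2, 48.7, 64.6 and 46.4 in Lat, 65.04, 41.8, 45.2 and 58.8 in M-BM, and 70.02, 76.8 and 71.2 in Pa. Against S-BM, log2 fold changes came to -1.29 (SE 0.17, adjusted p = 2.58e-05) in Lat and -1.27 (SE 0.17, adjusted p = 4.82e-05) in M-BM, and it was the only one of the 48 whose S-BM libraries all lay above all Pa libraries. MX1 stood at 2.22, 1.77, 2.77 and 2.56 in S-BM, 2.05, 2.55, 2.59 and 1.67 in Lat, 2.12, 1.401, 2.97 and 2.09 in M-BM, and 1.62, 2.29 and 1.67 in Pa. limma put its log2 fold change at -0.05 (SE 0.17, adjusted p = 0.814) in Lat and -0.10 (SE 0.17, adjusted p = 0.666) in M-BM, and its 4 groups overlapped at low values. MX2 had a mean of 0.245 in S-BM, with 0.0775 in Lat and 0.0835 in M-BM and was not tested.

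Both SAMD9 genes, which block protein synthesis on viral infection and restrain growth, were lower. So were 28.9% of all genes tested in Lat and 25.4% in M-BM. SAMD9L read 25.9, 28.8, 49.9 and 50.3 in S-BM, 4.98, 5.37, 9.94 and 6.21 in Lat, 5.96, 4.65, 5.55 and 12.1 in M-BM, and 65.9, 74.3 and 64.3 in Pa. Against S-BM this gave a log2 fold change of -2.36 (SE 0.29, adjusted p = 1.4e-05) in Lat and -2.32 (SE 0.29, adjusted p = 2.98e-05) in M-BM, and S-BM 3 and S-BM 4 were the highest of the 12. SAMD9 read 395, 420.2, 674 and 656 in S-BM, 189, 205, 194 and 225 in Lat, 196, 158, 227 and 303 in M-BM, and 486, 534 and 489.5 in Pa. It gave -1.35 (SE 0.20, adjusted p = 6.87e-05) in Lat and -1.27 (SE 0.20, adjusted p = 0.00017) in M-BM, with S-BM again the highest group of the 12 and level with Pa.

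PARP9 and DTX3L, which form an ADP-ribosylating ubiquitin ligase, and PARP14, a related transferase, were lower in both comparisons. The share of all genes called lower was 28.9% in Lat and 25.4% in M-BM. PARP9 read 50.5, 66.1, 70.4 and 72.1 in S-BM, 25.3, 24.8, 28.99 and 28.5 in Lat, 31.2, 23.9, 26.03 and 34.1 in M-BM, and 109.7, 106 and 92.3 in Pa. The log2 fold change was -1.23 (SE 0.14, adjusted p = 5.95e-06) in Lat and -1.14 (SE 0.14, adjusted p = 2.05e-05) in M-BM. DTX3L, which shares its promoter region with PARP9, read 188, 191, 197 and 212 in S-BM, 104, 115, 127 and 95.5 in Lat, 155, 90.05, 87.9 and 119 in M-BM, and 203, 196 and 207 in Pa. It gave -0.84 (SE 0.15, adjusted p = 0.000396) in Lat and -0.83 (SE 0.15, adjusted p = 0.000557) in M-BM, again without overlap. PARP14 read 204, 211, 219.5 and 212 in S-BM, 161, 175, 203 and 153 in Lat, 202, 172, 156 and 180.4 in M-BM, and 249, 259.6 and 224 in Pa. Its change was small, -0.30 (SE 0.10, adjusted p = 0.0221) in Lat and -0.26 (SE 0.10, adjusted p = 0.0481) in M-BM: the Lat call was lost without S-BM 3, Lat 1 or Lat 4 (adjusted p = 0.0536 to 0.0705) and without both S-BM 3 and S-BM 4 (adjusted p = 0.108), and the M-BM call without any of 9 libraries (any S-BM library, Lat 1, Lat 2, M-BM 2, M-BM 3 or M-BM 4, adjusted p = 0.0598 to 0.152) and with the replicate number as a block (-0.26, adjusted p = 0.0777). That M-BM call of PARP14 was also lost without both S-BM 3 and S-BM 4 (adjusted p = 0.181), with no filter, with quantile normalization and in edgeR (adjusted p = 0.055 to 0.0609).

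Most sensors of foreign nucleic acid did not pass the test. Lat had 1 lower and 2 higher of 7, and M-BM had 1 lower and 1 higher. The background was 28.9% of all genes lower and 29% higher in Lat, and 25.4% and 25.5% in M-BM. DDX58, which encodes the RNA sensor RIG-I, read 25.6, 35.8, 20.8 and 21.3 in S-BM, 11.1, 13.3, 32.1 and 17.4 in Lat, 12.2, 14.01, 16.7 and 20.4 in M-BM, and 44.6, 54.98 and 40.6 in Pa. It was not called, at -0.54 (SE 0.27, adjusted p = 0.103) in Lat and -0.66 (SE 0.27, adjusted p = 0.0549) in M-BM. Lat 3 alone reached the S-BM range, and without it both values were called (-0.83, adjusted p = 0.00533 in Lat, -0.66, adjusted p = 0.0132 in M-BM). The M-BM value was also called without Lat 1 or M-BM 4 and in DESeq2 (adjusted p = 0.0328 to 0.0436). A fit of the 2 groups and leaving out both S-BM 3 and S-BM 4 called it too, and the M-BM libraries all lay below the S-BM libraries. IFIH1, which encodes the long-RNA sensor MDA5, read 42.1, 50.7, 37.5 and 37.7 in S-BM, 45.7, 45.2, 72.7 and 47.9 in Lat, 40.1, 46.04, 54.6 and 54.2 in M-BM, and 51.8, 65.4 and 52.3 in Pa. It was not called, at 0.31 (SE 0.16, adjusted p = 0.113) in Lat and 0.21 (SE 0.16, adjusted p = 0.288) in M-BM, with overlapping groups. DHX58, the third member of that helicase family (LGP2), read 0.342, 0.8602, 0.375 and 0.116 in S-BM, 1.9, 1.22, 4.92 and 3.49 in Lat, 2.86, 2.48, 3.06 and 2.76 in M-BM, and 3.501, 6.29 and 3.28 in Pa. It was higher by 1.37 (SE 0.26, adjusted p = 0.00049) in Lat and 1.44 (SE 0.26, adjusted p = 0.000463) in M-BM, without overlap. Since DHX58 was below 1 in every S-BM library, the filter favoured this direction, and the calls are not separate support for it. ADAR, which edits double-stranded RNA, read 806, 896, 676 and 665 in S-BM, 576, 569, 628 and 560.4 in Lat, 482, 598, 614 and 675 in M-BM, and 869.8, 896 and 908 in Pa. Both groups were lower, at -0.37 (SE 0.12, adjusted p = 0.0165) in Lat and -0.36 (SE 0.12, adjusted p = 0.0228) in M-BM; the M-BM call was lost without S-BM 1, S-BM 2 or M-BM 1 (adjusted p = 0.0571 to 0.0737). EIF2AK2, the kinase PKR that halts translation on double-stranded RNA, read 144, 120.2, 106 and 108 in S-BM, 138, 155, 166 and 133 in Lat, 139.5, 119.7, 161 and 166 in M-BM, and 117, 134 and 117 in Pa. It was higher in Lat at 0.31 (SE 0.13, adjusted p = 0.0485) and missed the threshold in M-BM at 0.29 (SE 0.13, adjusted p = 0.0692). The Lat call of EIF2AK2 was lost without any of 8 libraries (all but S-BM 1, Lat 4, M-BM 2 and M-BM 4, adjusted p = 0.053 to 0.129), with the replicate number as a block (0.31, adjusted p = 0.0739), with no filter (adjusted p = 0.0675) and without both S-BM 3 and S-BM 4 (0.16, adjusted p = 0.384), while the M-BM value was called without S-BM 1 or M-BM 2 (adjusted p = 0.0213 and 0.0215). DDX60 (0.16 and 0.34) and the DNA sensor IFI16 (-0.24 and 0.05) were not called.

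Of 4 factors that carry the signal to promoters, IRF9, STAT2 and IRF1 were lower in both comparisons, where 28.9% of all genes were lower in Lat and 25.4% in M-BM, and IRF7 was not called. IRF9, the DNA-binding subunit of the complex with STAT2, read 43.4, 41.3, 45.7 and 49.6 in S-BM, 17.9, 15.9, 36.8 and 22.5 in Lat, 18.3, 14.1, 16.1 and 23.9 in M-BM, and 54.9, 70.4 and 62.1 in Pa. It fell by 0.99 in Lat (SE 0.21, adjusted p = 0.00136) and by 1.29 in M-BM (SE 0.21, adjusted p = 0.000261), and Lat 3 was the Lat library nearest to S-BM. The exons of IRF9 overlap those of another annotated gene over 48.4% of their bases, and 43.6% of its 50-base stretches also occur in other genes. Its reads may therefore be split, and the libraries do not mark the strand. STAT2 read 96.6, 90.2, 114 and 114 in S-BM, 45.6, 46.4, 64.5 and 59.4 in Lat, 53.3, 69.8, 52.6 and 62.9 in M-BM, and 134, 140.1 and 133 in Pa. Against S-BM, log2 fold changes came to -0.94 (SE 0.13, adjusted p = 5.58e-05) in Lat and -0.79 (SE 0.13, adjusted p = 0.000318) in M-BM, without overlap. IRF1, the early factor of the gamma response, read 62.1, 74.4, 80.8 and 90.3 in S-BM, 58.6, 54.1, 61.8 and 52.3 in Lat, 57.1, 58.1, 51.2 and 49.1 in M-BM, and 105, 109.6 and 104 in Pa. The test called it lower, at -0.42 (SE 0.11, adjusted p = 0.00549) in Lat and -0.50 (SE 0.11, adjusted p = 0.00242) in M-BM, with Lat 3 just under S-BM 1, and its Lat call was lost once S-BM 3 and S-BM 4 had been removed (-0.26, adjusted p = 0.0903). IRF7, the factor that amplifies interferon production, read 6.55, 3.896, 7.05 and 9.02 in S-BM, 4.62, 4.71, 14.1 and 5.86 in Lat, 6.84, 6.42, 7.01 and 3.95 in M-BM, and 7.47, 9.66 and 6.61 in Pa. It was not called, at 0.04 (SE 0.30, adjusted p = 0.921) in Lat and -0.09 (SE 0.30, adjusted p = 0.816) in M-BM, and Lat 3 held its highest value of the 15 libraries.

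The remaining 9 genes of varied function had 2 lower, 3 higher and 4 not called in each comparison. Among all genes, 28.9% were lower and 29% higher in Lat, and 25.4% and 25.5% in M-BM. IFI27, a mitochondrial and nuclear membrane protein widely used as a marker of type I response, read 0.513, 0.455, 0.15 and 0.291 in S-BM, 2.31, 1.22, 22.7 and 5.37 in Lat, 1.82, 0.587, 0.876 and 0.618 in M-BM, and 93.7, 206 and 146 in Pa. It was higher in Lat at 2.10 (SE 0.52, adjusted p = 0.00364), or 1.42, adjusted p = 0.00165 without Lat 3, and not called in M-BM at 0.51 (SE 0.52, adjusted p = 0.432). IFI27 was below 1 in every S-BM library, so the filter favoured the higher direction. XAF1, a pro-apoptotic zinc finger protein, read 0, 0.455, 0 and 0 in S-BM, 2.36, 2.55, 5.902 and 3.28 in Lat, 2.51, 2.12, 0.632 and 0.666 in M-BM, and 9.83, 17.5 and 10.1 in Pa. It was higher by 1.98 (SE 0.29, adjusted p = 5.76e-05) in Lat and 1.09 (SE 0.29, adjusted p = 0.0062) in M-BM without overlap, and its M-BM call was lost once S-BM 3 and S-BM 4 had been removed (0.95, adjusted p = 0.053). The gap to M-BM was narrow in reads, with 9 in S-BM 2 against 13 in M-BM 3 and 14 in M-BM 4. XAF1 too was below 1 in every S-BM library, so the filter favoured this direction. TRIM22, a ubiquitin ligase that restricts viral transcription, read 13.8, 24.04, 23.9 and 26.3 in S-BM, 4.78, 5.54, 2.59 and 5.65 in Lat, 4.97, 10.1, 3.31 and 5.99 in M-BM, and 40.4, 55.9 and 40.3 in Pa. It fell by 2.03 in Lat (SE 0.28, adjusted p = 4.29e-05) and by 1.75 in M-BM (SE 0.28, adjusted p = 0.000218), without overlap. LGALS3BP, a secreted galectin ligand, was higher at 0.93 and 0.92, from 78.7 ± 19.4 in S-BM to 148 ± 26.3 in Lat and 148 ± 23.7 in M-BM (SD, n = 4). IFI35 was lower at -0.79 and -0.71, the second lost once S-BM 3 and S-BM 4 had been removed (-0.71, adjusted p = 0.0566). IFI44 was higher in M-BM at 1.07 (SE 0.33, adjusted p = 0.0149), lost without M-BM 3 (0.88, adjusted p = 0.0536) and without both S-BM 3 and S-BM 4 (0.76, adjusted p = 0.142), and not called in Lat at 0.60, where it was called without S-BM 2 (0.87, adjusted p = 0.0288). IFI44L was not called, at 0.92 and 0.59; the Lat value was called without S-BM 2 (1.33, adjusted p = 0.0213) or Lat 1 (1.23, adjusted p = 0.0495). IFI6 (0.40 and -0.41) and SP110 (-0.12 and -0.18) were not called either.

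**Figure D3:**
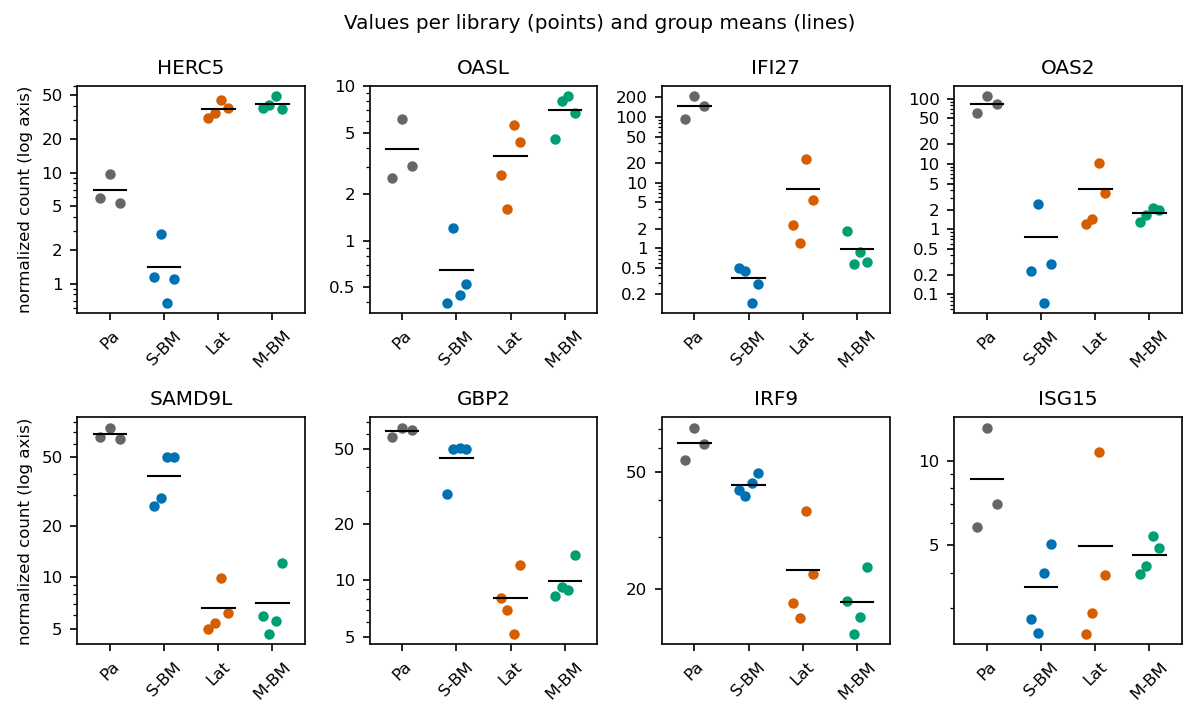
Normalized counts of 8 interferon-stimulated genes on log axes, 1 point per library (3 Pa, 4 S-BM, 4 Lat, 4 M-BM) with a line at each group mean; Pa was scaled to the other table. HERC5 and OASL are lowest in S-BM, SAMD9L, GBP2 and IRF9 are lower in Lat and M-BM than in S-BM, IFI27 and OAS2 are highest in Pa, and ISG15 overlaps between the 3 brain-derived groups.

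M-BM against Lat compares the metachronous with the latent cells. Of the 48 genes, 0 were called in limma, where 26 of 12853 genes (0.202%) were. By direction the background was 0.0934% lower and 0.109% higher, and 0.0545% and 0.0934% at 2-fold or more. At an unadjusted p under 0.05 there were 5 (IFIT2, IFIT5, OASL, IFI27 and XAF1), and the smallest adjusted p was 0.259, for OASL. edgeR called 0 and DESeq2 called 1, IFI27, which was lower in M-BM. With 1 library left out in turn, the limma value of IFI27 ran from -2.05 to -0.91. Lat 3 read 22.7 for this gene, against 1.22 to 5.37 in the other Lat libraries. Only IFIT5 had groups that did not overlap, lower in M-BM, as 3.48% of all genes were; 3.64% of all genes, and 0 of the 48, did so in the higher direction. Log2 fold changes ran from -1.59 (IFI27) to 0.87 (OASL) around a median of 0.04. The lack of limma calls does not exclude differences of the size called against S-BM for single genes. The 95% interval of IFI27, not adjusted for the number of genes, reached from -2.71 to -0.46. That of HERC5 reached from -0.30 to 0.60.

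Lat 3 carried higher values than the other Lat libraries. It was the highest of the 4 for 36 of 48 genes (75%), against 36.5% of all 13205 genes, and it exceeded each other Lat library by at least 2-fold for 8 (ISG15, OAS1, OAS2, ISG20, IRF7, IFI6, IFI27 and IFI44L), against 2.27% of all genes. For IFI6 it stood at 23.7, against 4.83, 3.54 and 8.72 in Lat 1, Lat 2 and Lat 4. Beside these, Lat 3 had CD68 at 30.9 (8.64 to 10.4 in the other Lat libraries) and COL1A1 at 20.7 (5.93 to 7.11). Their lists were mixed. The other matched immune and microglial markers stayed below 1, with AIF1, CD14 and CD3E at 0 in Lat 3. PECAM1 was lowest there, at 1.5 (2.86 to 3.595), and COL1A2 and PDGFRB were highest in Lat 4. CDH5 was highest in Lat 3, at 5.125 (3.6 to 3.749), as were CX3CR1 at 0.362 and VWF at 0.518. The summed immune and microglial list, mostly CD68, ran from 9.03 to 31.4 in Lat, 9.36 to 26.5 in S-BM and 10.1 to 16.3 in M-BM, with 0 of its 7 matched markers at 0 throughout. The part of other cells in the Lat 3 values was not tested. S-BM 2 similarly exceeded the other S-BM libraries by at least 2-fold for 8 genes (HERC5, OAS2, OASL, CMPK2, DHX58, IFI44, IFI44L and XAF1), against 2.07% of all genes, all at values of 3.74 or less. Pa 2 was the highest Pa library for 39 of 48 (81.2%, against 32% of all genes). S-BM 3 and S-BM 4 were both above S-BM 1 and S-BM 2 for 21 genes (27.5% of all genes) and both below for 11 (30.9%).

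**Figure D4:**
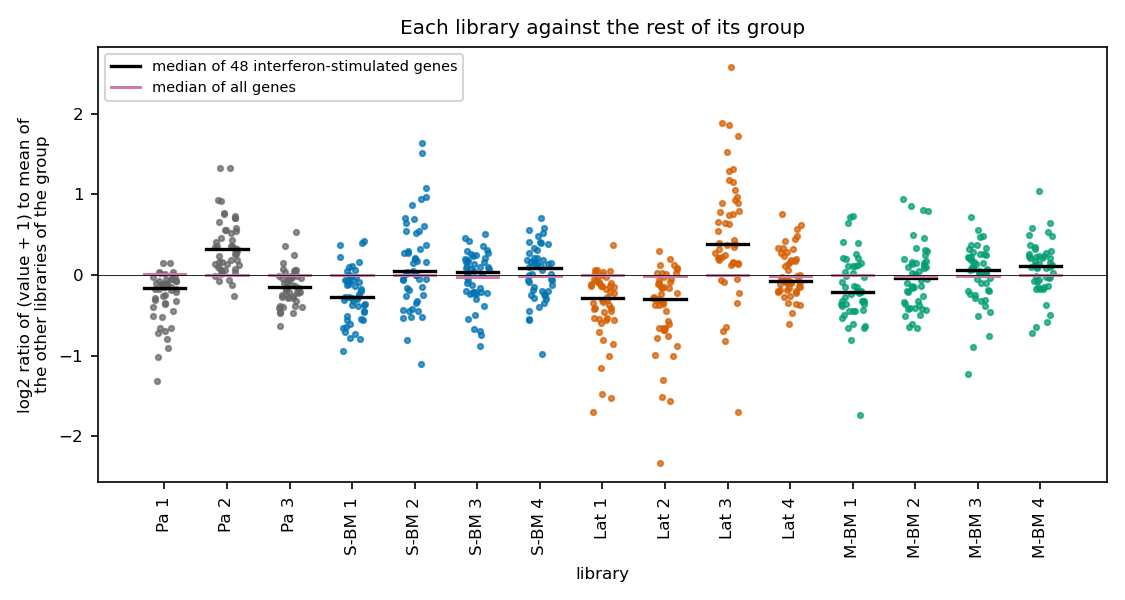
Log2 ratio of value + 1 in each library to the mean of the other libraries of its group, 1 point for each of 48 interferon-stimulated genes, with their median in black and that of all genes in pink. The black lines of Lat 3 (0.39) and Pa 2 (0.32) lie highest and those of Lat 1 and Lat 2 (both -0.29) lowest, while all pink lines lie near 0.

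In the parental cells the 48 genes lay mostly above the brain-derived groups. All Pa libraries were above all S-BM libraries for 34 of 48, against 22.2% of all genes, above all Lat libraries for 32 (36.3%), above all M-BM libraries for 36 (33.8%), and above all 12 for 24 (15.1%). The opposite held for GBP1 against S-BM (18.8%), HERC5 against Lat (33.3%), HERC5 and ISG20 against M-BM (31.6%) and 0 genes against all 12 (11.5%). The median log2 ratio to the Pa mean came to -0.61 in S-BM but -1.06 in both Lat and M-BM, beside -0.02, -0.02 and -0.01 over all genes. IFI27 and OAS2 showed the widest gaps: their Pa means of 149 ± 56.1 and 84.2 ± 24.1 (SD, n = 3) compare with 0.352 and 0.756 in S-BM. HERC5 ran the other way, from a Pa mean of 6.99 ± 2.44 (SD, n = 3) to 37.1 in Lat. SAMD9, IFITM3 and EIF2AK2 were at 503 ± 27.1, 157 ± 11.9 and 122 ± 9.54 in Pa (SD, n = 3), within the S-BM ranges.

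**Figure D5:**
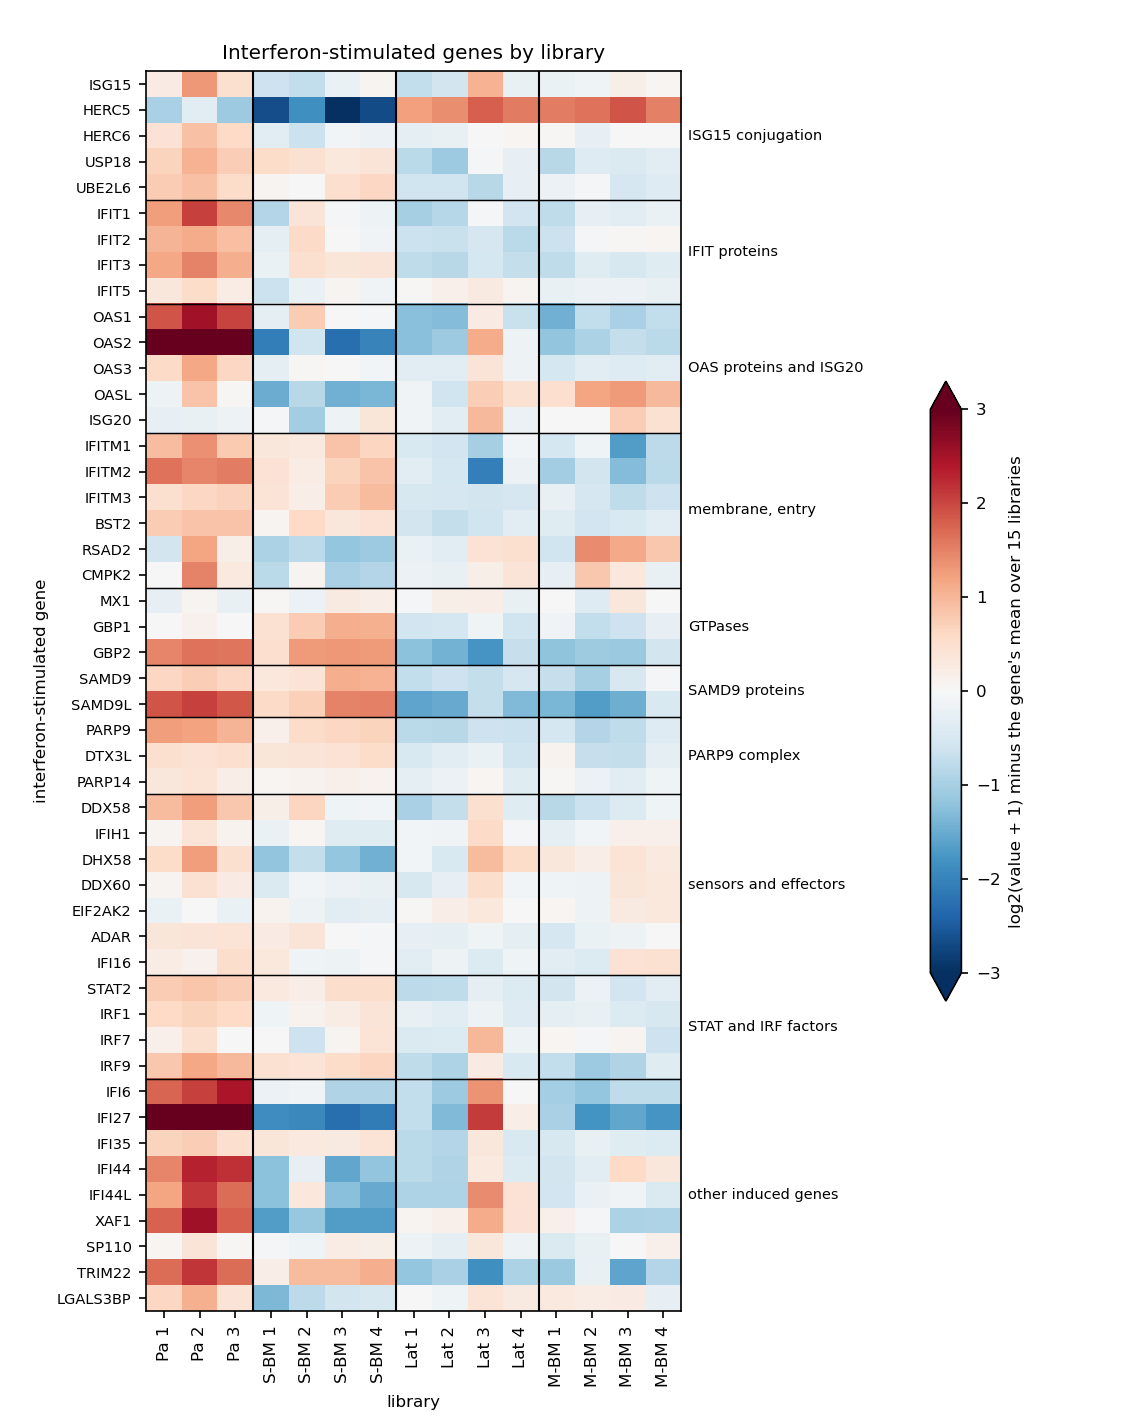
Heat map of log2(value + 1) minus each gene's mean over 15 libraries for 48 interferon-stimulated genes (rows, by role) and all libraries (columns, by group); red is above and blue below the mean, and the colour scale ends at 3. Pa columns are mostly red, HERC5 is red in Lat and M-BM alone, and the Lat 3 column is redder than the rest of Lat.

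Further lists show the rest of the pathway, from ligands to targets. Of the interferon genes, 6 matched a name and 0 passed the filter; IFNE, a type I interferon of epithelia, was the highest, at 0.658 in S-BM 2, and IFNB1 reached 2 reads at most. Of 15 tested receptor and JAK-STAT genes, 9 were lower and 1 was higher in each comparison, beside 28.9% lower and 29% higher over all genes in Lat and 25.4% and 25.5% in M-BM. In this list and those that follow, IFNLR1, MB21D1, GBP4 and SLFN11 were below 1 in every S-BM library and were tested only because they were higher in another group. IFNLR1, the specific chain of the type III interferon receptor, had 0 reads in all 4 S-BM libraries and read 1.33, 1.99, 8.13 and 1.95 in Lat, 4.38, 4.65, 5.304 and 3.71 in M-BM and 6.06, 5.97 and 8.89 in Pa. Against a limit of 3 reads in an S-BM library (a value of 0.225 or less), its mean was at least 14.9-fold higher in Lat and at least 20.1-fold higher in M-BM. These limits use group means, 3.35 ± 3.2 in Lat and 4.51 ± 0.66 in M-BM (SD, n = 4), and leave out the spread of the libraries. The filter favoured their direction, so the limits are not separate support for it. Without Lat 3, the highest Lat library, the Lat limit was at least 7.83-fold. IFNAR2, a chain of the type I receptor, read 8.66, 12.9, 12.2 and 12.6 in S-BM, 4.21, 4.71, 4.19 and 3.98 in Lat, 5.12, 3.75, 5.79 and 6.09 in M-BM, and 18.7, 17.5 and 19.6 in Pa. It was lower, at -1.24 (SE 0.16, adjusted p = 1.97e-05) in Lat and -1.03 (SE 0.16, adjusted p = 0.000144) in M-BM. TYK2, the kinase bound to its partner IFNAR1, read 35.4, 36.03, 32.8 and 35.4 in S-BM, 14.2, 14.7, 15.1 and 14.4 in Lat, 16.8, 14.8, 12.7 and 15.8 in M-BM, and 41.9, 49 and 47.7 in Pa. Both groups were lower, at -1.20 (SE 0.10, adjusted p = 1.03e-06) in Lat and -1.17 (SE 0.10, adjusted p = 2.62e-06) in M-BM, and IFNAR1 gave -0.95 (SE 0.14, adjusted p = 5.65e-05) in Lat and -0.93 (SE 0.14, adjusted p = 0.000101) in M-BM; neither gene's Lat or M-BM libraries overlapped with S-BM.

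Among 18 tested genes of nucleic acid sensing and interferon induction, 4 were higher and 6 lower in Lat, and 3 and 6 in M-BM, beside the same shares of all genes (29% higher and 28.9% lower in Lat, 25.5% and 25.4% in M-BM). TMEM173, which encodes the DNA-pathway adaptor STING, read 22.96, 31.7, 26.4 and 26.9 in S-BM, 5.65, 4.38, 3.83 and 5.16 in Lat, 6.06, 7.14, 4.18 and 10.1 in M-BM, and 46.5, 59.2 and 43.6 in Pa. It fell by 2.28 in Lat and by 1.87 in M-BM, without overlap. MB21D1, which encodes cGAS, the DNA sensor upstream of STING, read 0.05697, 0.152, 0 and 0.0582 in S-BM, 0.462, 0.554, 4.61 and 0.558 in Lat, 2.86, 1.22, 3.16 and 3.04 in M-BM, and 1.15, 1.91 and 1.89 in Pa. It was higher by 0.99 (SE 0.36, adjusted p = 0.0303) in Lat and 1.70 (SE 0.36, adjusted p = 0.00149) in M-BM, with S-BM at 3 reads or fewer per library and Lat 3 the highest of the 15. Without Lat 3 the Lat value of MB21D1 was 0.52 (adjusted p = 0.0453). Its Lat call was lost without S-BM 1, S-BM 3 or S-BM 4 (adjusted p = 0.0538 to 0.0602), without both S-BM 3 and S-BM 4 (0.94, adjusted p = 0.116) and with quantile normalization (0.73, adjusted p = 0.106). MYD88, the adaptor of most Toll-like receptors, read 13.6, 21.2, 12.8 and 13.6 in S-BM, 4.11, 4.32, 7.82 and 5.86 in Lat, 4.28, 1.85, 6.91 and 6.42 in M-BM, and 21.01, 25.3 and 44.8 in Pa. The test called it lower, at -1.33 (SE 0.29, adjusted p = 0.00147) in Lat and -1.55 (SE 0.29, adjusted p = 0.000623) in M-BM. Of 48 further tested interferon-stimulated genes, 25 were lower and 6 higher in Lat, and 24 and 5 in M-BM, beside the 28.9% lower and 29% higher of all genes in Lat and 25.4% and 25.5% in M-BM. SLFN11, which blocks stressed replication forks, read 0, 0.0506, 0 and 0 in S-BM, 8.06, 7.81, 14.3 and 6.76 in Lat, 4.83, 13.2, 10.3 and 8.23 in M-BM, and 0.875, 1.91 and 0.833 in Pa. It had 1 read in all of S-BM, and since it passed the filter only through Lat and M-BM, its direction there was fixed by the filter. PML, the scaffold of nuclear bodies, read 24.9, 31.6, 46.3 and 46.4 in S-BM, 12.8, 13.3, 13.1 and 15.1 in Lat, 16.8, 12.8, 15.1 and 14.1 in M-BM, and 34.2, 40.4 and 36.95 in Pa. It was lower, at -1.35 (SE 0.18, adjusted p = 2.35e-05) in Lat and -1.25 (SE 0.18, adjusted p = 7.19e-05) in M-BM. APOL1, a lipid-binding pore protein, read 13.7, 11.9, 36 and 34.04 in S-BM, 11.04, 9.802, 4.09 and 13.2 in Lat, 17.8, 14.01, 8.71 and 8.94 in M-BM, and 34.2, 36.1 and 30.6 in Pa. S-BM 3 and S-BM 4 were far above the other S-BM libraries, and Lat 4 lay above S-BM 2. It was lower in Lat at -1.18 (SE 0.39, adjusted p = 0.0176) and not called in M-BM at -0.79 (SE 0.39, adjusted p = 0.1). Without both S-BM 3 and S-BM 4 its Lat value was -0.49 (adjusted p = 0.292) and its M-BM value -0.10 (adjusted p = 0.844), and the Lat call was also lost without S-BM 3, S-BM 4 or Lat 3 alone (adjusted p = 0.0574 to 0.0595). In M-BM, APOL1 was called without S-BM 2 (-1.05, adjusted p = 0.0362) and in DESeq2 (-0.96, adjusted p = 0.0298).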

How the data were processed

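Messenger RNA of 15 HCC1954 libraries was analysed from signal values that the authors deposited as normalized counts, 1 per gene and library. Alignment used Bowtie 0.12.2 and the build was GRCh38, per the submitters' processing notes; how reads were counted, annotated and normalized is not given in the sources used here. TruSeq RNA v2 libraries were made, per the labels' protocols. Values were whole multiples of 1 step per library (within 0.05 reads), which gave reads per gene for all values (100%) and 13.25 to 21.84 M reads per library.

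The 3 brain-tropic groups entered 1 fit in limma 3.58.1 (R 4.3.3) on log2(value + 1), with 3 group means, 9 residual degrees of freedom, a variance trend and Benjamini-Hochberg adjustment over 12853 genes with a value of at least 1 in at least 4 of 12 libraries; tests were two-sided, and scripts were tested on simulated data. edgeR 4.0.16 and DESeq2 1.42.0 on recovered reads, another pseudocount (0.25), filters (10 or none), quantile normalization, fits on 2 groups, a replicate block and leaving out libraries were alternatives. Pa was multiplied by 1.0176, the median ratio over 11236 genes, and not tested. The labels do not state that replicate numbers pair the libraries, so no pairing by number entered the tests. Residuals of libraries with the same replicate number correlated at -0.26 to 0.30. They were above 0.1 in 4 of 12 such pairs, and in 6 of 36 pairs with different numbers. The 2 repeated names were left out.

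The members and lists were chosen with earlier results of these data known. Values per library are given for 12 chosen genes and up to 3 called genes of each role with the largest change, and for up to 3 called genes of each further list (1 chosen gene of these lists is not reported here); IFNAR1 and the neighbours of HERC5 and SAMD9L were named after their values were seen. Promoters and gene positions come from RefSeq (GRCh38.p14).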

Additional observations from a re-analysis of the deposited data

Results flagged for a closer look

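In groups of 4, a library was marked where its gap to the nearest other exceeded the 95% critical share of the group's range (Dixon's test). This happened for 14 of 144 pairs of gene and group, and chance marks about 1 in 20.

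Lat 3 was the highest Lat library for ISG20 at 9.06 (others 3.05 to 3.8), GBP1 at 64.6 (others 46.4 to 48.7), IFIH1 at 72.7 (others 45.2 to 47.9), IRF7 at 14.1 (others 4.62 to 5.86) and SP110 at 23.3 (others 14.7 to 16.2). S-BM 2 was the highest S-BM library for OAS2 at 2.43 (others 0.075 to 0.291), OASL at 1.21 (others 0.399 to 0.524), CMPK2 at 1.06 (others 0 to 0.114), IFI44L at 3.54 (others 0.291 to 0.57) and XAF1 at 0.455 (all others at 0). In S-BM 1, GBP2 at 28.9 (others 50.1 to 50.9) was the lowest of its group. Among M-BM libraries, HERC6 at 23.2 (others 27.7 to 28.4) was the lowest in M-BM 2, IFIT2 at 18.5 (others 28.6 to 30.3) in M-BM 1, and LGALS3BP at 113 (others 155 to 164) in M-BM 4.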

How the results depend on the processing

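No call of the 48 genes changed direction under any alternative. Of the 22 genes lower in Lat, 18 kept their call in every alternative that tested them, and of the 11 higher genes 6 did (DHX58, HERC5, IFI27, LGALS3BP, OASL and XAF1). Of the 21 lower in M-BM, 17 did, and of the 8 higher genes 5 did (DHX58, HERC5, LGALS3BP, OASL and RSAD2). Among these higher genes, DHX58, IFI27, XAF1 and RSAD2 were below 1 in every S-BM library, and OASL reached 1 in 1. The filter favoured their direction, so a call kept across alternatives is not separate support for it.

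A filter at a value of 10, which tested 31 of the genes, left 4 higher in Lat (11 with the filter of 1) and 1 at 2-fold (7), and 2 higher in M-BM (8) and 1 at 2-fold (6), because low genes were not tested. DESeq2 called 1 gene lower in M-BM against Lat, also at 2-fold, where limma called 0; the cause was not tested. Without scaling of Pa, or with scaling by trimmed mean of M-values, 2 genes in place of 1 had all Pa libraries below all Lat libraries (EIF2AK2 was added). Leaving out each library in turn gave 20 to 24 lower and 8 to 11 higher genes in Lat (8 to 13 and 5 to 8 at 2-fold), 19 to 23 and 6 to 9 in M-BM (10 to 11 and 5 to 8 at 2-fold), and 0 in M-BM against Lat.

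Over all genes, the 26 called in M-BM against Lat became 14 with the filter at 10, 50 with quantile normalization, 225 in DESeq2, 17 in a fit of the 2 groups, and 4 to 55 without 1 library (4 without Lat 1, Lat 2 or M-BM 4, 11 without M-BM 3 and 55 without M-BM 1). With the replicate number as a block, Lat had 22 lower and 10 higher genes and M-BM 20 and 8, with 0 in M-BM against Lat; the block ended the calls of EIF2AK2 in Lat and PARP14 in M-BM and no other. Libraries with different numbers correlated at -0.26 to 0.29, above 0.1 in 6 of 36 pairs. Depth limits genes below a value of about 1.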
